A study of Gallus gallus with 6 samples.

Results

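A set of 8 miRNAs known from gut and pancreas was followed in small RNA libraries of chicken abdominal fat. They are the 8 of 667 miRNAs in the deposited table whose names belong to the miR-192, miR-194, miR-215, miR-216, miR-217 and miR-375 families: gga-miR-215-5p, gga-miR-215-3p, gga-miR-194, gga-miR-375, gga-miR-216a, gga-miR-216b, gga-miR-216c and gga-miR-217-5p, written below without the species prefix. The families were chosen by name with the levels of miR-215-5p, miR-194 and miR-375 in these same 6 libraries already known, so levels and group differences of the set are a description and carry no test. The libraries came from abdominal fat of broilers (Gallus gallus) at day 35, in 3 libraries of birds given 50 IU vitamin E and 3 control libraries, called vitamin E fat and control fat here. The birds belonged to a feeding study of 240 female chicks, put at 1 day of age on 5 diets that held 0, 20, 50, 75 or 100 IU DL-α-tocopherol acetate (a synthetic vitamin E), and the labels print no dose beside the control samples. Nothing in the labels says that each library of a group is a separate bird, so the spread between them may be technical.

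miRNAs are short RNAs that repress target transcripts, and each is cut from one arm (5p or 3p) of a hairpin. miR-194, miR-192 and miR-215 are known in mammals as miRNAs of intestinal epithelium, liver and kidney, and p53 induces them in human cells. Also in mammals, miR-216a, miR-216b and miR-217 mark acinar cells, the enzyme-secreting cells of the pancreas, and miR-375 marks its islets and other endocrine cells, where it restrains insulin secretion in mouse cells. In the chicken gene table of assembly GRCg7b the genes of miR-194 and miR-215 are neighbours, as are those of miR-216a, miR-216b, miR-216c and miR-217. The search by name included miR-192 but matched no row for it.

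Library totals were 5844435 to 7062595 counts in vitamin E fat and 5028671 to 7357204 counts in control fat. The lowest total was that of control 2. Of the 238 miRNAs that passed the filter on low counts, 22 (9.24%) stood in control 1 at least 2-fold above every other library, 6 did so in control 2, and no other library had more than 1. Control 1 and control 2 also lay at opposite ends of the first principal component (34.7% of the variance of log2 values). Group differences of the members are also given without control 2, the library in which miR-215-5p and miR-194 were highest. Without control 1 the log2 fold changes of vitamin E over control were -2.0 for miR-215-5p, -0.77 for miR-194 and -1.44 for miR-375, against -1.56, -0.75 and -1.07 with all libraries.

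miR-215-5p was the main member of the set in every library, and a single control library held most of its reads. Its reads numbered 848, 989 and 526 in vitamin E fat, against 632, 4357 and 641 in control fat. Values are listed from library 1 to 3 of each group. Scaled to a library total of 1000000 (the deposited TPM, which has no length term), these were 145, 140 and 86.3 TPM in vitamin E fat and 94.8, 866 and 87.1 TPM in control fat. In bulk tissue, more cells of one type and more of the RNA per cell cannot be told apart. Control 2 stood alone. Control 1 and control 3 lay within the range of vitamin E fat, near vitamin E 3 and below vitamin E 1 and vitamin E 2. The value of miR-215-5p in control 2 had an exact 95% counting interval of 841 to 893 TPM, and the highest interval among the other libraries ended at 155 TPM. Intervals here reflect counting error alone and treat each read as an independent molecule. Whether reads carried molecular identifiers is not stated, so the intervals may be too narrow. miR-215-5p ranked 52nd among the 667 miRNAs of control 2, and between 92nd and 106th in each of the other libraries. The 5p arm held nearly all reads of this hairpin. miR-215-3p had 1 count, in vitamin E 3, against 7993 counts of the 5p arm over all 6 libraries, a share of 0.0125% (exact 95% interval 0.000317 to 0.0697%).

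miR-194, encoded next to miR-215, had fewer reads in every library and stood out far less in control 2. Its reads numbered 128, 117 and 167 in vitamin E fat, against 209, 277 and 120 in control fat. These correspond to 21.9, 16.6 and 27.4 TPM in vitamin E fat and 31.3, 55.1 and 16.3 TPM in control fat. Control 2 was again the highest, with an interval of 48.8 to 62.0 TPM, control 1 followed, and control 3 lay level with vitamin E 2. The 2 groups overlapped.

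**Figure D1:**
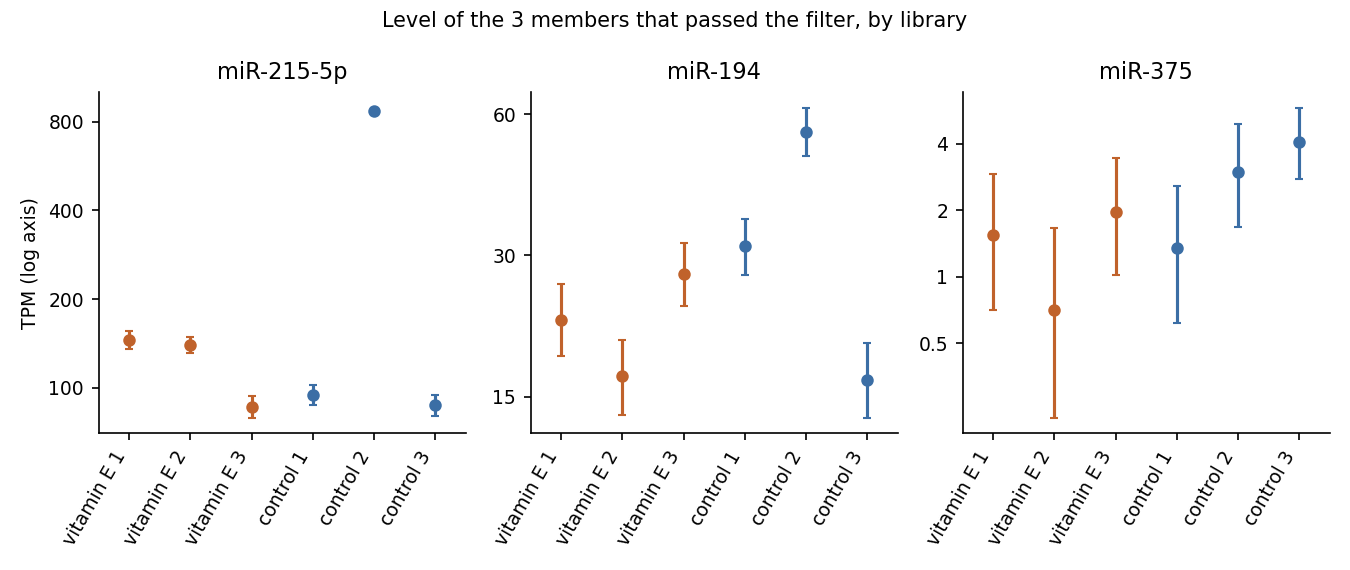
TPM (log axis, a separate scale in each panel) of miR-215-5p, miR-194 and miR-375 in the vitamin E libraries and the controls; each point is 1 library and each bar its exact 95% counting interval, which is smaller than the point for miR-215-5p in control 2. miR-215-5p stood at 866 TPM in control fat 2 and at 86.3 to 145 TPM elsewhere, miR-194 reached 55.1 TPM in control fat 2, and miR-375 was highest in control 3 at 4.08 TPM.

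The balance between both gut miRNAs within a library, which no scaling can alter, was not constant. There were 6.63, 8.45 and 3.15 reads of miR-215-5p per read of miR-194 in vitamin E fat, and 3.02, 15.7 and 5.34 in control fat. The exact 95% interval in control 2 was 13.9 to 17.8, above the upper bound of 10.3 in vitamin E 2, the next highest. Among the other libraries the ratio of vitamin E 2 also lay clear of those of vitamin E 3 and control 1, whose intervals were 2.64 to 3.77 and 2.58 to 3.55. Reads of different miRNAs are captured with unequal efficiency, so the ratios compare libraries and do not give the ratio of molecules.

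**Figure D2:**
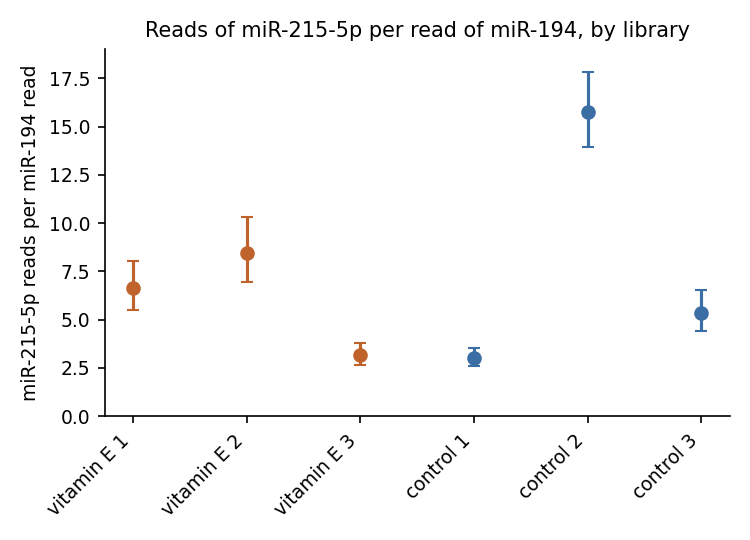
Reads of miR-215-5p per read of miR-194 in each vitamin E and control library; points are libraries and bars exact 95% counting intervals. The ratio was 15.7 in control 2 and between 3.02 and 8.45 in the other libraries.

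miR-375, the endocrine member, was rare and did not share the pattern of the gut miRNAs. Its reads numbered 9, 5 and 12 in vitamin E fat and 9, 15 and 30 in control fat, or 1.54, 0.708 and 1.97 TPM in vitamin E fat and 1.35, 2.98 and 4.08 TPM in control fat. Control 3 was highest, with an interval of 2.75 to 5.82 TPM that overlapped the 1.67 to 4.92 TPM of control 2. In control 3, where miR-375 peaked, miR-215-5p and miR-194 were near their lowest values. There were 4 reads of miR-194 per read of miR-375 in control 3 (exact 95% interval 2.66 to 6.18). The other 5 libraries had 13.9 to 23.4.

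The acinar miRNAs had few reads in every library. Together miR-216a, miR-216b, miR-216c and miR-217-5p had 9, 21 and 7 counts in vitamin E fat, against 9, 18 and 12 counts in control fat. Their summed level was 1.54, 2.97 and 1.15 TPM in vitamin E fat and 1.35, 3.58 and 1.63 TPM in control fat, with counting intervals that all overlapped. miR-216b was the most abundant, with 2, 9 and 4 counts in vitamin E fat and 9, 9 and 7 in control fat, and was seen in all 6 libraries. miR-216c had 6, 10 and 1 counts in vitamin E fat and 0, 6 and 3 in control fat. The genes of miR-216b and miR-216c overlap by position in GRCg7b, with strand not compared. No sequences were used, so whether any read fits both is unknown. The rule for such reads is not stated either, so the split between them may be uncertain. miR-216a had 1, 1 and 0 counts in vitamin E fat and 0, 3 and 0 in control fat. miR-217-5p had 0, 1 and 2 counts in vitamin E fat and 0, 0 and 2 in control fat. The exact 95% counting interval of a count of 0 ended at 0.501 to 0.734 TPM, depending on the library. None of the 4, nor miR-215-3p, passed the filter, so 3 of the 8 members entered the fit.

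Whether the members rose together in single libraries was read from the highest library of each and its distance to the second. On CPM (counts per 1000000 after correction of library sizes by TMM factors), miR-215-5p in control 2 stood 6.02-fold above its next library, vitamin E 1 (exact 95% counting interval 5.59 to 6.49). That ratio was the third highest among the 238 miRNAs, whose median was 1.22. miR-194 in control 2 stood 1.51-fold above control 1 (1.25 to 1.81), and miR-375 in control 3 stood 1.33-fold above control 2 (0.693 to 2.66). Of the 238 miRNAs, 17.2% had their highest value in control 2, as did 2 of the 3 members, and 14.7% had it in control 3, as did miR-375. In any library, 12.6% stood at least 2-fold above the second highest. Only 2.52% stood in control 2 at least 2-fold above every other library, and miR-215-5p was the 1 member among them. On deposited TPM the ratios were 5.97 for miR-215-5p, 1.76 for miR-194 and 1.37 for miR-375. On unscaled read counts they were 4.41, 1.33 and 2, with the same library highest for each member. The 3 members therefore had no common highest library by value. For miR-375 the counting interval did not separate control 3 from control 2, its second library. The gut pair shared control 2, with a 6.02-fold excess of miR-215-5p beside a 1.51-fold excess of miR-194. The acinar rows summed to 18 counts there, or 3.58 TPM. That was their highest sum, with a counting interval that overlapped those of all other libraries.

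**Figure D3:**
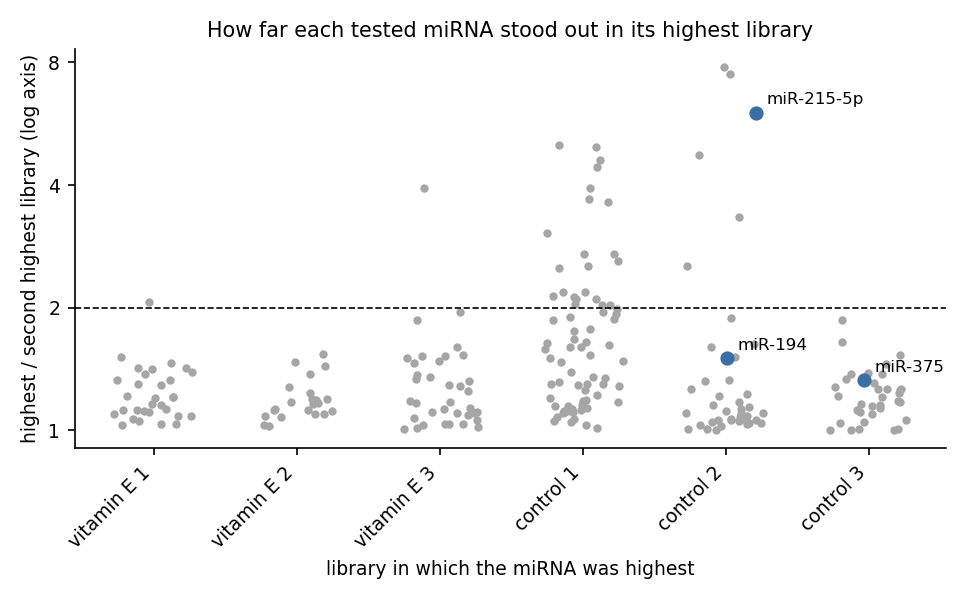
For each of the 238 tested miRNAs, the ratio of its highest to its second highest library (log axis), placed over the library in which it was highest; grey points are other miRNAs, coloured points are the members, and the dashed line marks 2-fold. miR-215-5p stood at 6.02 over control 2, miR-194 at 1.51 over control 2 and miR-375 at 1.33 over control 3, while control 1 held 22 of the points above the line.

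As pairs over the 6 libraries, miR-215-5p and miR-194 had a Pearson r of 0.73 and a Spearman rho of 0.37 on log2(CPM + 1). Without control 2 and vitamin E 3, the libraries farthest from the median of miR-215-5p, r was 0.10, so the relation was not seen over the other 4 libraries. Control 2 was the highest library of both. In vitamin E 3 miR-215-5p was at its lowest, 81.9 CPM, while miR-194 stood at 26.0 CPM, above vitamin E 1 and vitamin E 2. miR-375 had an r of 0.21 with miR-215-5p and 0.25 with miR-194. Over 4 libraries, r of miR-375 with miR-215-5p was 0.89 without control 3 and vitamin E 2 and -0.85 without control 2 and vitamin E 3. With miR-194 it was 0.81 without control 3 and vitamin E 2 and -0.05 without control 1 and control 2, so these values also turned on which libraries were included. These values describe 6 libraries and carry no test.

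The question of the study's comparison was which miRNAs of abdominal fat differ with 50 IU vitamin E. All 3 members in the fit had negative log2 fold changes of vitamin E over control, as did 54.2% of the 238 miRNAs tested (46.6% to 60.5% with other scalings), and for miR-215-5p the sign turned without control 2. miR-215-5p averaged 120 ± 33.0 CPM in vitamin E fat, against 352 ± 442 CPM in control fat (SD, n = 3 each), a log2 fold change of -1.56 (SE 0.84). Without control 2 the mean of the other 2 controls was 97.3 CPM and the log2 fold change was 0.30 (SE 0.36). miR-194 averaged 21.1 ± 5.12 CPM in vitamin E fat, against 35.7 ± 19.5 CPM in control fat, which is a log2 difference of -0.75 (SE 0.51), and -0.24 (SE 0.47) without control 2. miR-375 averaged 1.35 ± 0.61 CPM in vitamin E fat, against 2.83 ± 1.20 CPM in control fat, which is a log2 difference of -1.07 (SE 0.56), -1.09 (SE 0.75) without control 2 and -0.75 (SE 0.70) without control 3. On log2(TPM + 1) in limma these were -0.68 for miR-215-5p, -0.49 for miR-194 and -0.63 for miR-375, and with the replicate number as a block miR-215-5p was at -0.72. The ranges of both groups overlapped for all 3 members, whereas the groups were apart for 13.9% of the miRNAs tested. None of the 3 was among the calls of edgeR's quasi-likelihood test at a Benjamini-Hochberg adjusted p under 0.05, which took 0.420% of the 238 miRNAs (1, miR-9-5p), and 0 of the 3 had an unadjusted p under 0.05 in edgeR with all libraries. Of all miRNAs tested, 18 of 238 had one in edgeR with all libraries and 25 of 248 without control 3. Without control 3, 2 of the 3 members had one in edgeR and 0 of them were called. DESeq2 called neither miR-194 nor miR-375. It gave no adjusted p for miR-215-5p, which could therefore not be called in that fit.

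Within the controls miR-215-5p was among the most variable miRNAs, which largely restates its high value in control 2. The SD of its log2(CPM + 1) was 0.44 over the vitamin E libraries, which was rank 74 of 238, and 1.83 over the controls, rank 5. For miR-194 these SDs were 0.35 in vitamin E fat and 0.88 in control fat, and for miR-375 they were 0.41 in vitamin E fat and 0.48 in control fat. The medians over all 238 miRNAs were 0.29 in vitamin E fat and 0.47 in control fat, and the SD was larger in control for 175 of them.

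The 5 miRNAs most like miR-215-5p by Pearson r of log2(CPM + 1) over the 6 libraries were the predicted novel_235 (r = 0.96), miR-1454 (0.91), miR-3536 (0.88), miR-184-3p (0.87) and miR-205b (0.86). All were highest in control 2, which follows largely from their choice by likeness to miR-215-5p. novel_235 stood at 3.38, 3.24 and 4.05 CPM in vitamin E fat, against 3.49, 31.5 and 2.50 CPM in control fat. miR-205b, of a family found in stratified epithelia, stood at 24.8, 30.8 and 12.8 CPM in vitamin E fat, against 48.6, 230 and 45.3 CPM in control fat. miR-1454 stood at 145, 114 and 161 CPM in vitamin E fat, against 148, 409 and 118 CPM in control fat. Without control 2 and vitamin E 3, r with miR-215-5p was 0.80 for novel_235, -0.83 for miR-205b, 0.29 for miR-1454 and 0.074 for miR-3536 over 4 libraries. The likeness of miR-205b, miR-1454 and miR-3536 was therefore weak or reversed over those 4. miR-184-3p, at 40.7, 30.5 and 34.7 CPM in vitamin E fat, against 25.8, 65.3 and 21.2 CPM in control fat, had the highest Spearman rho of the 5, 0.66, and an r of 0.94 over the same 4 libraries.

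For miR-194 the most alike were novel_116 (r = 0.93), miR-1563 (0.91), miR-1454 (0.89), miR-3536 (0.88) and novel_235 (0.82), so 3 of the 5 were also among those of miR-215-5p, and miR-215-5p itself came 15th. novel_116 had 1.18, 0.945 and 2.02 CPM in vitamin E fat, against 7.32, 6.93 and 1.05 CPM in control fat, high in control 1 as well as control 2. Without those libraries r over the remaining 4 was 0.90 for novel_116, 0.80 for miR-1563 and 0.99 for miR-1454. It was 0.51 for miR-3536 and 0.84 for novel_235. miR-375 was most like let-7g-3p (r = 0.91), miR-27b-3p (0.89), miR-107-3p (0.77), novel_1 (0.73) and miR-32-3p (0.72). let-7g-3p stood at 7.77, 6.34 and 7.16 CPM in vitamin E fat, against 6.45, 11.5 and 13.2 CPM in control fat.

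**Figure D4:**
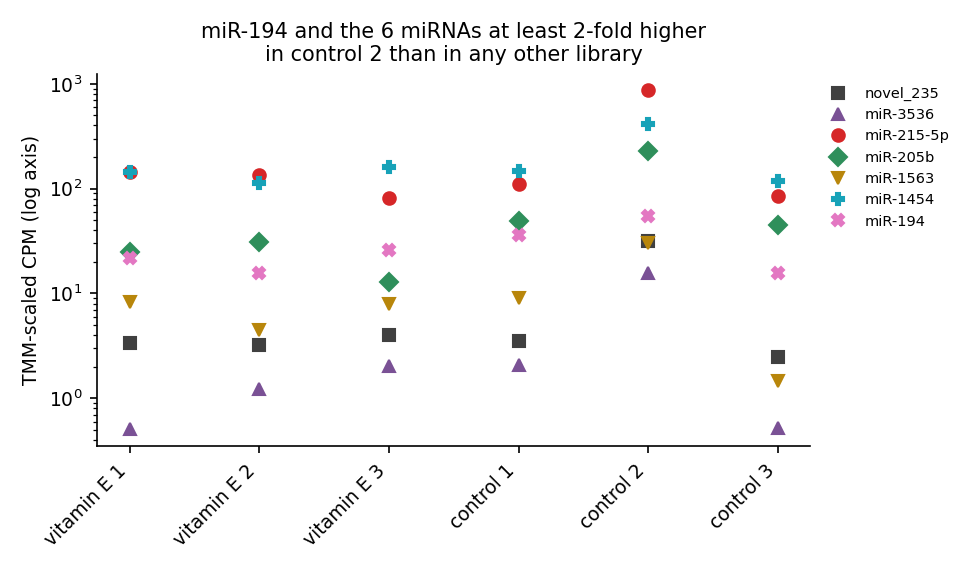
TMM-scaled CPM (log axis) of miR-194 and of the 6 miRNAs that stood in control 2 at least 2-fold above every other library, in the vitamin E and control libraries; each point is 1 library. miR-215-5p reached 863 CPM in control fat 2 beside 409 for miR-1454, 230 for miR-205b, 31.5 for novel_235, 30.3 for miR-1563 and 15.6 for miR-3536, while miR-194 stood at 54.8 CPM.

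Other miRNAs of gut, pancreas, liver and epithelium were set beside the members by name. Their part in the high miR-215-5p of control 2 was not tested. The islet and endocrine list had 5 rows, 1 of them the member miR-375. Of these 3 passed the filter and 0 were called. All 3 had log2 fold changes below 0, as did 54.2% of all miRNAs tested. They were -1.07 for miR-375, -0.64 for miR-204 and -0.08 for miR-184-3p. miR-184-3p turned above 0 when libraries were scaled by totals alone. The median was -0.64, against -0.07 over all miRNAs tested. The list, with miR-375, summed to 44.3 to 53.0 CPM in vitamin E fat, against 36.3 to 88.1 CPM in control fat. miR-184-3p was its largest row in every library but control 1, where miR-204 stood at 31.7 CPM and miR-184-3p at 25.8 CPM, while miR-7, abundant in islets, was listed at 0 in all libraries except for 1 count in vitamin E 2. The liver list was miR-122, the dominant miRNA of hepatocytes. miR-122-5p stood at 5.24, 5.67 and 7.32 CPM in vitamin E fat, against 15.5, 20.6 and 12.2 CPM in control fat, so it too was highest in control 2, by 1.33-fold. Its log2 fold change of -1.40 (SE 0.43) did not pass (edgeR, quasi-likelihood; adjusted p = 0.325 by Benjamini-Hochberg).

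With miR-205b included, the summed level of the epithelial miRNAs in control 2 lay within the range of the other libraries. Of 12 rows 10 passed the filter and 0 were called, with 8 log2 fold changes above 0, 2 below and a median of 0.57, and the same split with each of 3 other scalings. Over all 238 miRNAs tested, 109 were above 0 and the median was -0.07. The 10 rows held both arms of miR-200a and of miR-200b. All 12 rows summed to 344, 423 and 519 CPM in vitamin E fat, against 351, 449 and 383 CPM in control fat. Without miR-205b, a split made after the values were seen, the sums were 319, 392 and 507 CPM in vitamin E fat, against 303, 219 and 337 CPM in control fat. Control 2 then had the lowest sum of all libraries. The row left out was the one that peaked in control 2, so a fall of the control 2 sum follows from that choice. miR-205b was the 1 of the 10 with its highest value in control 2. miR-200a-3p, the most abundant of the list and a miRNA of epithelia including that of the gut, stood at 123, 162 and 139 CPM in vitamin E fat, against 79.0, 88.3 and 124 CPM in control fat. miR-200b-3p, from the same family, stood at 79.6, 110 and 91.5 CPM in vitamin E fat, against 47.9, 49.5 and 56.8 CPM in control fat. In control 2 neither was above the range of the other libraries.

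For scale, miRNAs listed for stroma and fat summed to 298530 to 351826 CPM in vitamin E fat, against 331566 to 382852 CPM in control fat. They were led by miR-26a-5p, and all 10 rows passed the filter. No other tissue was at hand, so this sum does not test which tissue was sampled. The gut rows summed to 108 to 165 CPM in vitamin E fat, against 100 to 918 CPM in control fat, so the gut and pancreas miRNAs were a minor part of each library. All 8 members together made up 0.0117 to 0.0170% of the counts with vitamin E. In control they made up 0.0928% in control 2 and 0.0109 and 0.0129% in the other controls.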

How the data were processed

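The whole-number read counts per mature miRNA were deposited by the authors for 6 libraries, per the file headers. The TPM values deposited by the authors equal counts divided by the library total times 1000000, with no length term. For the aligner, counting rule, miRNA reference and build: not given in the sources used here. Members were taken by name; they, the lists and the tests were chosen with earlier results of these data known. No miRNA sequences were used.

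The counts of 238 miRNAs that passed filterByExpr (minimum count 10, minimum total 15) were fitted with edgeR 4.0.16 in R 4.3.3: TMM factors, robust quasi-likelihood test, group as the one term, Benjamini-Hochberg adjustment over all 238 and a threshold of 0.05. The SE is the log2 fold change divided by the square root of the F statistic. CPM use TMM-scaled library sizes of the tested rows. Named miRNAs were every member, the 5 most like each tested member, and from each list the most abundant or those peaking in control 2; miR-7, miR-204, miR-122-5p and miR-200b-3p were named after their values were seen. The lists of nervous, muscle, erythroid, leukocyte and endothelial miRNAs held 0 to 1 calls each. The leukocyte list had its highest sum in control 2, 51031 CPM against 30272 to 40835 CPM elsewhere. Of its 10 rows 4, all of 1 family, were highest there, against 17.2% of all miRNAs tested, and 0 by 2-fold. The other lists named here had 0 tested rows highest in control 2. The gene table of GRCg7b served only to find neighbouring or overlapping miRNA genes, within 10 kb. Alternatives included DESeq2 1.42.0 and limma 3.58.1.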

Additional observations from a re-analysis of the deposited data

How the results depend on the processing

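No member was called in any of the 14 alternative fits. DESeq2 gave no adjusted p for miR-215-5p, so that fit could not call it. Without control 3, 2 of the 3 had an unadjusted p under 0.05 in edgeR, beside 25 of all 248 miRNAs tested. With all libraries 0 of the 3 had one, beside 18 of 238. In the other fits no member p under 0.05 was counted, with a missing p counted as not under 0.05. Left-out libraries moved the log2 fold changes of vitamin E over control between -2.03 and 0.30 for miR-215-5p, -1.13 and -0.24 for miR-194, and -1.44 and -0.75 for miR-375. The sign of miR-215-5p turned without control 2 (0.30). In the other 8 fits the values ran from -1.61 to -0.68, -0.84 to -0.49 and -1.16 to -0.63. Of all miRNAs, 1 was called in the reported fit, 0 with upper-quartile factors (18 with an unadjusted p under 0.05, edgeR), 8 without the filter, 7 with DESeq2, 3 with limma on log2(TPM + 1), and 0 to 1 with a library left out (11 to 31 unadjusted). The cause of these differences was not tested. Scaling by library totals shifted all log2 fold changes by a median of 0.107, and limma on TPM by 0.129 and 0.132. With the replicate number as a block 5 were called; deviations of libraries that share a number were not alike (r = -0.17, 0.0022 and -0.02). On unscaled counts the ratio of the highest to the second library was 4.41 for miR-215-5p, against 6.02. Depth limits the acinar members and miR-375, which had at most 30 counts in a library.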
